A study of Homo sapiens with 5 samples.

Results

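The muscle nicotinic acetylcholine receptor genes CHRNA1, CHRNB1, CHRND, CHRNG and CHRNE, and the kinase gene MUSK, were examined in chromatin immunoprecipitation sequencing (ChIP-seq) data from rhabdomyosarcoma, a tumour of soft tissue whose cells resemble developing skeletal muscle. All listed regions overlapping 5 fixed hg19 windows around these 6 genes were taken, with CHRND and CHRNG in a shared window. This gave 91 of the 100703 regions in 3 peak lists: 46 of 43159 for histone H3 acetylated at lysine 27 (H3K27ac) in the line RD, 30 of 46408 for H3K27ac in the line RH18, and 15 of 11136 for the transcription factor MYF5 in RH18. RD and RH18 are established human cell lines of the fusion-negative form of the tumour. They were grown in DMEM with serum and antibiotics, without any treatment or genetic change named in the labels, and fixed in 1% formaldehyde for 12 minutes. Each of the 3 groups was 1 library, so the values have no replicate error, no test was possible, and any difference between the lines includes differences between the libraries. Input DNA of both lines was not analysed here, nor was MYF5 in RD.

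The acetylcholine receptor of muscle is a ring of subunits that opens a cation channel when a motor nerve releases acetylcholine. CHRNA1 encodes the alpha subunit, which forms the binding sites for acetylcholine together with its neighbours. CHRNB1 and CHRND encode the beta and delta subunits. CHRNG encodes the gamma subunit of the fetal receptor, which the epsilon subunit from CHRNE replaces in innervated adult muscle. MUSK encodes the receptor tyrosine kinase that, when nerve agrin engages its partner LRP4, gathers the receptors under the nerve ending. MYF5 belongs to the myogenic basic helix-loop-helix factors, which bind the E-box CANNTG together with E proteins, and several receptor genes are textbook targets of this family. H3K27ac marks active promoters and enhancers.

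Promoter sequences are shown for CHRNA1, CHRND and MUSK as examples, so that the E-boxes a myogenic factor could recognise there can be seen. All 5 windows, those of CHRNB1 and CHRNE included, hold both MYF5 peaks and H3K27ac. The sequences are the 250 bases upstream of the RefSeq start on GRCh38.p14, 5′ to 3′ on the gene's strand, with every CANNTG in capitals. They lie at chr2:174764473-174764722 on the minus strand for CHRNA1, chr2:232525910-232526159 on the plus strand for CHRND and chr9:110668541-110668790 on the plus strand for MUSK. The peak lists use hg19, so no peak was placed on these sequences.
CHRNA1: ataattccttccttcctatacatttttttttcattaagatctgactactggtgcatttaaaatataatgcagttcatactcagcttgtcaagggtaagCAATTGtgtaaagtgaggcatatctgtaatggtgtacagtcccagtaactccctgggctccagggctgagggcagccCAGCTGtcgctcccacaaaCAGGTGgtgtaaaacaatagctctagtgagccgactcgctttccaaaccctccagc
CHRND: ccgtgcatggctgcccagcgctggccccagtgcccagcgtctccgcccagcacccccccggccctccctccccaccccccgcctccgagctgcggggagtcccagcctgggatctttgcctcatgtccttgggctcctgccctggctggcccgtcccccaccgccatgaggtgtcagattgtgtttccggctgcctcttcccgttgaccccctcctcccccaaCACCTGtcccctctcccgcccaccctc
MUSK: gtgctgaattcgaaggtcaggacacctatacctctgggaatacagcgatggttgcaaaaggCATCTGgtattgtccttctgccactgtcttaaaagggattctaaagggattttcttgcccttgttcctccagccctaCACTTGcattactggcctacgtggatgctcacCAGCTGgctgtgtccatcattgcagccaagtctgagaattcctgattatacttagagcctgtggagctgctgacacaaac

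The 5 promoters found in the RefSeq table, of the 6 genes, each held at least 1 E-box. CHRNA1 held 3, with CAGCTG starting 75 bases and CAGGTG starting 56 bases upstream of the start. CHRND held 1, a CACCTG 27 bases upstream, which is CAGGTG on the other strand. MUSK held 3, with CAGCTG 80 bases upstream. CHRNB1 held 4, with CAGGTG 24 bases upstream. CHRNE held 4, among them CAGCTG at 142 and at 111 bases and a CAGGTG farther upstream. CHRNG was not matched. Over 27305 promoters of the same length, 1 per gene symbol and searched on both strands, 62.2% held a CANNTG, 10.5% held at least 3 and 3.46% at least 4. CAGCTG, which was in 3 of the 5 promoters, was in 13.8% of all, and CAGGTG or CACCTG, which was in 4 of the 5, was in 17.5% of all. These motifs are contained in CANNTG and were counted again within it. A match describes letters in a window and shows no binding.

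The genes of a window share it with others. In RefSeq order, WIPF1 and CHN1 are the protein-coding genes next to CHRNA1, and CHRND and CHRNG lie side by side between PRSS56 and TIGD1. CHRNB1 lies between FGF11 and ZBTB4, close to POLR2A, the gene for the largest subunit of RNA polymerase II. CHRNE lies between MINK1 and C17orf107, followed by GP1BA, SLC25A11, RNF167 and PFN1, and MUSK between SVEP1 and LPAR1. Gene positions on hg19 were not used here. Regions are therefore given by window and position, with no statement of exon, intron or promoter, and the muscle identity of the lines was not checked against marker genes.

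Most of the listed regions lay close together. Joined across the lists within 2000 bp, a distance chosen after the data were seen, the 91 regions formed 19 clusters. Of these, 9 held regions of all 3 lists, 3 held H3K27ac of both lines without MYF5, 2 held RD H3K27ac alone and 3 RH18 H3K27ac alone. The last 2 paired MYF5 with acetylation of a single line, RD in the MUSK window and RH18 in the CHRNE window. A shared cluster does not mean overlap: in the MUSK cluster with all 3 lists, from 113410501 to 113413488, no region overlapped another. Clusters were not built over the whole lists, so whether these counts are unusual is not known.

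**Figure D1:**
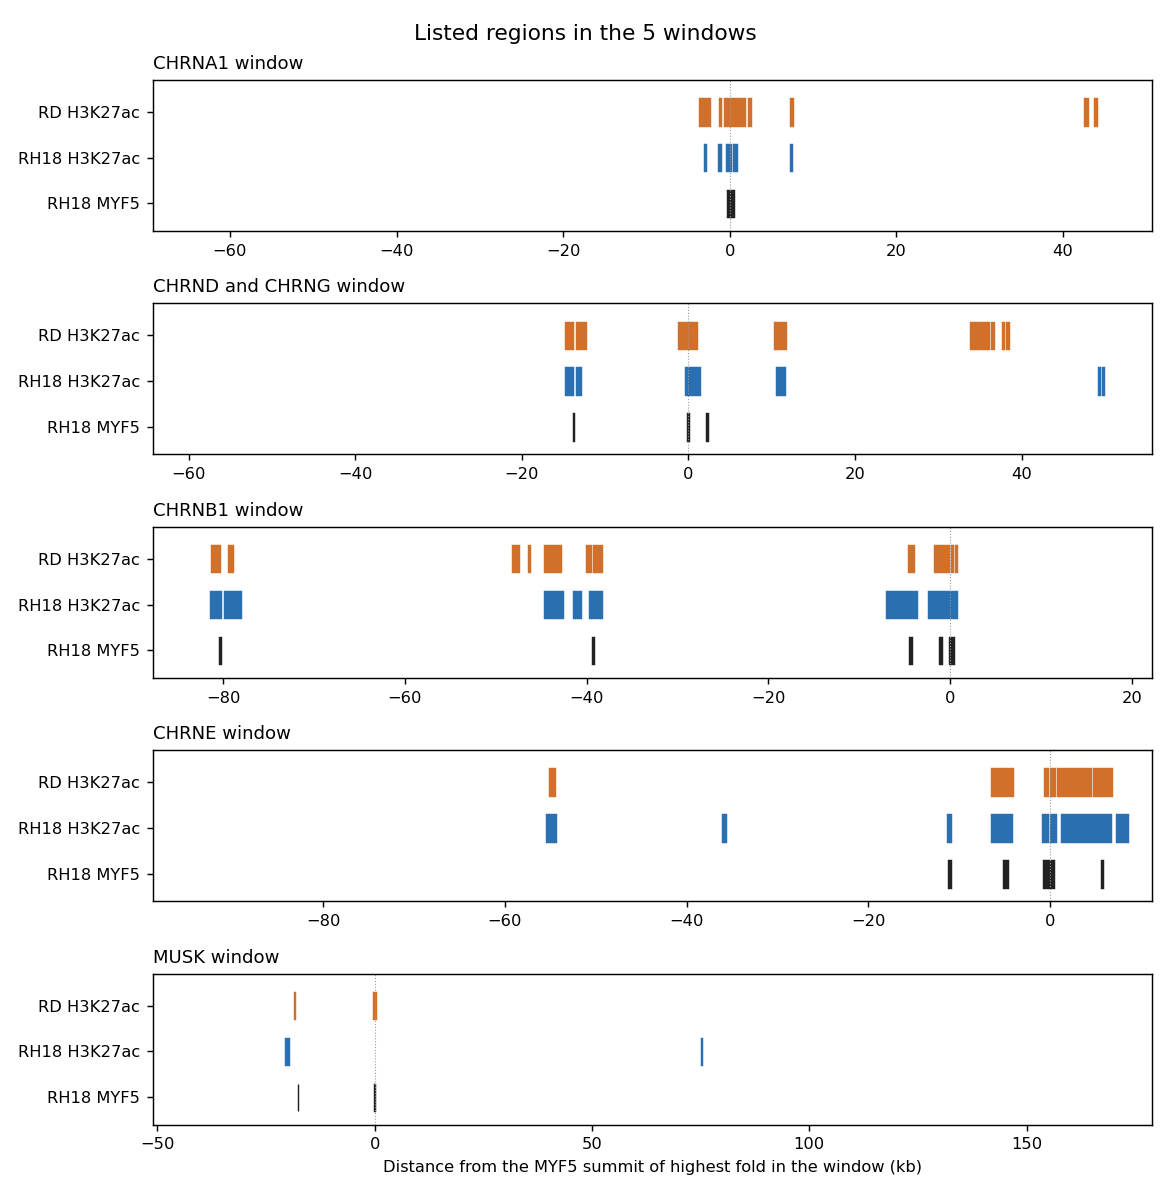
Listed regions in the 5 windows, drawn to scale as boxes for RD H3K27ac, RH18 H3K27ac and RH18 MYF5. The horizontal axis is the distance in kb from the MYF5 summit of highest fold in each window; the CHRNA1 window has a single MYF5 peak within a compact acetylated cluster, and the MUSK window holds 2 regions of each list.

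The CHRNA1 window held the RD H3K27ac region of highest fold enrichment in the whole genome. Fold enrichment is the peak caller's ratio of signal to local background at a summit, as the authors deposited it, and is used here only within a list. This region (chr2:175628609-175630736, 2128 bp) had a fold of 50.6, rank 1 of 43159, and rested on 300 sequenced tags at its summit. Tags were recovered for each region from its fold and p-value. By tags it ranked 15 and by p-value 2, and the local background under it was 0.427 times the median of its list. In RH18, the overlapping region (chr2:175628799-175629406, 608 bp) had a fold of 89.1 and 247 tags, which ranked 275 by fold and 1461 by tags among 46408. Their summits lay at 175629054 in RD and 175629072 in RH18.

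The single MYF5 peak of the CHRNA1 window sat on this shared site. It spanned chr2:175628919-175629715 (797 bp), had a fold of 20.3 and 91 tags, and ranked 1306 by fold and 800 by tags of 11136. Its summit at 175629255 lay inside the acetylated regions of both lines, 201 bp from the RD summit and 183 bp from the RH18 summit. It ended beyond the RH18 region and covered the gap to the next one (chr2:175629686-175630074, fold 24.8, 68 tags). In RD the same span was 1 unbroken region.

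Over the whole CHRNA1 window, RD listed more regions than RH18. The RD window held 9 regions covering 5053 bp, with folds from 2.75 to 50.6 and a median of 9.79. Of these, 7 lay around the shared site, from 175625613 to 175636868. The weakest by fold, chr2:175673024-175673323, had a −log10 q-value of 3.25, below the lowest value of the RH18 list, 5.13. The RH18 window held 5 regions covering 1914 bp, with folds from 8.66 to 89.1 and a median of 10.5. All 5 RH18 regions overlapped an RD region, and 4 of the 9 RD regions overlapped an RH18 region. Of all consecutive genome bins of 120 kb, 4.77% held as many RD summits and 12.9% as many RH18 H3K27ac summits, while 24.0% held at least 1 MYF5 summit. At least 1 H3K27ac summit was in 39.5% of bins for RD and 42.6% for RH18. The bins include stretches without genes, whereas all windows here were placed on genes. Shares of bins are therefore descriptions, and enrichment over other gene-centred windows was not tested. One RD region stood apart at chr2:175671811-175672210, with a fold of 31.0 (rank 326) and 197 tags, and lay 28492 bp from the nearest RH18 region. It had no MYF5 peak within its cluster. In RefSeq order CHN1 follows CHRNA1 in this direction, and this region could not be assigned to CHRNA1. The widest RD region of the window was also its highest.

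The window of CHRND and CHRNG held 3 MYF5 peaks, of which the first pair had summits 13.7 kb apart. Peak 1 (chr2:233390428-233390603) had a fold of 11.6 and 44 tags, and peak 2 (chr2:233404156-233404378) a fold of 11.7 and 47 tags. Peak 3 (chr2:233406367-233406618) had a fold of 9.87 and 30 tags, and lay 2203 bp beyond peak 2. Peaks 1 and 2 were near the medians of their list, a fold of 11.2 and 42.0 tags, and peak 3 was below them, at rank 9410 of 11136 by tags. Of the bins of 120 kb, 4.52% held 3 or more MYF5 summits.

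Peak 1 lay in a gap between acetylated regions in both lines. In RH18 its summit was 49 bp from the end of the region on the left (chr2:233389463-233390486, fold 16.3, 77 tags) and 258 bp from the start of the one on the right (chr2:233390793-233391358, fold 23.1, 82 tags). In RD the same gap was bounded by chr2:233389524-233390471 (fold 15.3, 221 tags) at 64 bp and chr2:233390856-233391967 (fold 18.0, 261 tags) at 321 bp. Gaps of this kind, with regions ending within 500 bp on both sides, held 4.81% of all MYF5 summits in RH18 and 10.6% in RD. The H3K27ac summits of the flanks nearly coincided between the lines, at 233390151 and 233390178 on the left and at 233391075 and 233391087 on the right.

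Peak 2 lay inside acetylated regions of both lines. The RH18 region (chr2:233403943-233405677, fold 33.8, 93 tags) was the highest by fold and the widest of the window in that line. In RD the summit was inside chr2:233403081-233404297 (fold 12.0, 215 tags), 13 bp from its right end, and the next RD region began at 233404411 (fold 13.5, 219 tags). Peak 3 lay outside H3K27ac in both lines, 810 bp from the nearest RH18 region and 1180 bp from the nearest RD region.

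The lines differed most in the right part of this window. A group of 5 RD regions from 233438099 to 233442720 had no MYF5 peak, and the nearest RH18 region lay 10741 bp away. Its main region (chr2:233438515-233440374, 1860 bp) had a fold of 26.1, rank 831, and 184 tags, and was the highest by fold and the widest of the window in RD. RH18 instead listed 2 weak regions at chr2:233453462-233453699 (fold 6.60, 19 tags) and chr2:233453931-233454159 (fold 7.74, 36 tags). Another site, chr2:233414861-233415941 in RH18, had a fold of 15.7 but 244 tags, since the local background there was 6.0 times the median of the list. The RD regions at the same site, with folds of 8.57 and 7.01, rested on 226 and 231 tags over backgrounds of 4.22 and 5.44 times the median. Whether this background bears on the acetylation there was not tested. In RefSeq order TIGD1, EIF4E2 and EFHD1 follow CHRNG in this direction, and the signal could not be assigned to CHRND or CHRNG.

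**Figure D2:**
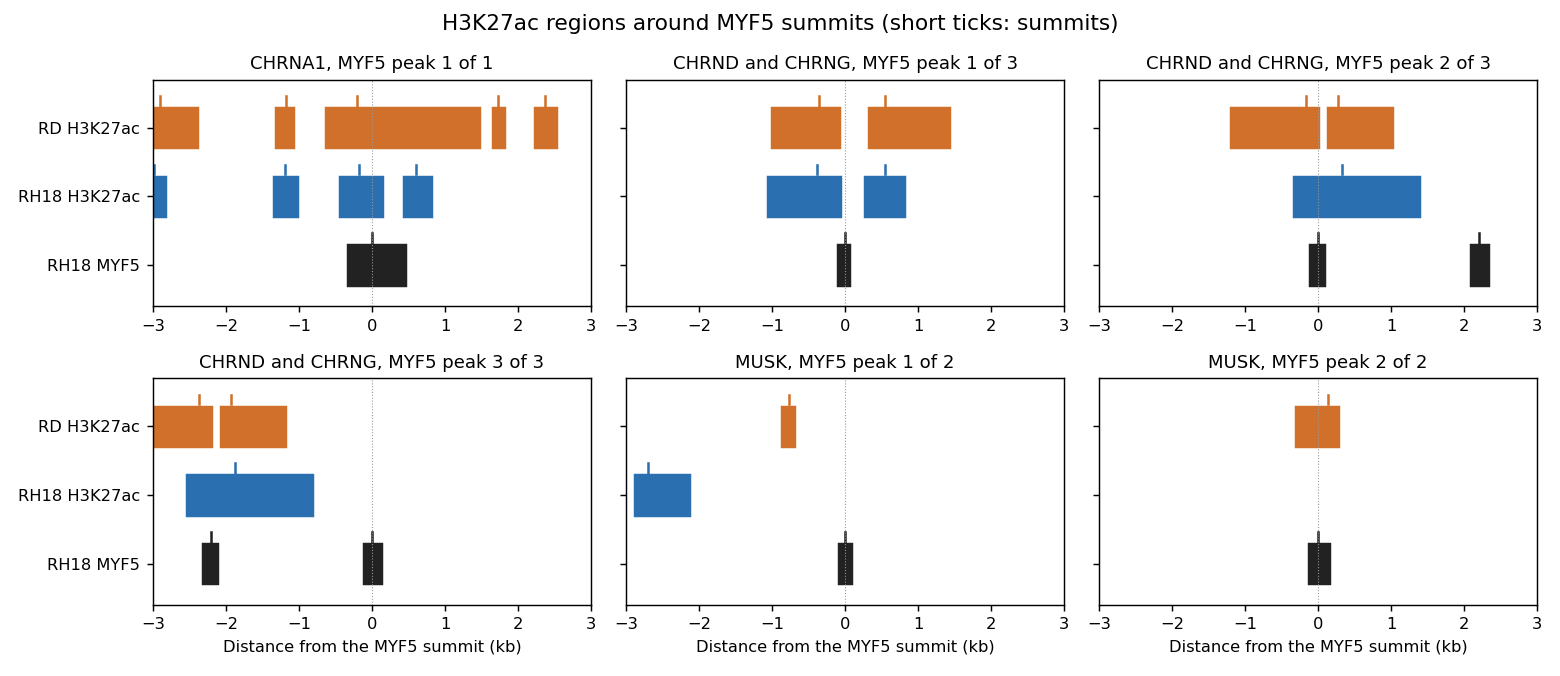
H3K27ac regions within 3 kb of the 6 MYF5 summits in the CHRNA1, CHRND and CHRNG, and MUSK windows. Boxes are listed regions to scale, short ticks are their summits, and the horizontal axis is the distance in kb from the MYF5 summit; peak 1 of CHRND and CHRNG sits in a gap in both lines, and peak 2 of MUSK in an RD region without an RH18 one.

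The CHRNB1 window had more RD regions and more MYF5 peaks than the other 4. It held 13 RD regions covering 8462 bp, 8 RH18 regions covering 14148 bp, and 5 MYF5 peaks. As many summits were held by 1.79% of bins of 110 kb for RD, 6.12% for RH18 H3K27ac and 1.07% for MYF5. The regions formed 3 clusters, each with all 3 lists, and every MYF5 summit lay inside an RH18 region. The middle cluster ran from 7339502 to 7349453. Its strongest RH18 region (chr17:7347967-7349453) had a fold of 59.8, rank 1851, and 286 tags, and held a MYF5 summit of fold 8.88 and 39 tags at 7348476. In RD that summit lay inside chr17:7348410-7349412 (fold 12.3, 221 tags), and the RD and RH18 regions shared the summit position 7348600. The region to its left in RD (chr17:7347690-7348258, fold 14.5) was separate there, and the RH18 region overlapped both.

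The highest signals of this window were at its right cluster. The RH18 region chr17:7385348-7388523 (3176 bp) had a fold of 83.0, rank 411, and 319 tags, and held 2 MYF5 summits. One of them, in the peak chr17:7387573-7388136, had a fold of 37.6 and 146 tags, rank 204 of 11136, and was the highest MYF5 peak by fold and by tags near any of the 6 genes. In RD it sat in a gap, 124 bp from the end of chr17:7386003-7387609 (fold 24.1, 261 tags) and 63 bp from the start of the next region. The other MYF5 peaks there were at chr17:7386519-7386831 (fold 11.9, 47 tags) and chr17:7383222-7383495 (fold 6.47, 28 tags). The latter lay in the widest RH18 region of the window (chr17:7380728-7384087, 3360 bp), with a fold of 53.1, rank 2680 of 46408. Its RD counterpart (chr17:7383114-7383708) had a fold of 8.75, rank 18536 of 43159. The widest RD region, chr17:7343047-7344948 (1902 bp, fold 13.9), held no MYF5 summit. The left cluster held the fifth MYF5 peak, chr17:7307233-7307459 (fold 10.3, 41 tags). It lay in an RH18 region of fold 38.9 (rank 5808) and an RD region of fold 6.04 (rank 32552), each ranked in its own list. Other genes lie in this window, and the signal could not be assigned to CHRNB1.

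In the CHRNE window, acetylation and MYF5 were concentrated near the right end. It held 10 RD regions covering 9395 bp, 9 RH18 regions covering 12134 bp and 4 MYF5 peaks. As many summits were in 3.34%, 4.99% and 2.05% of bins of 110 kb, in that order. When the window was shortened by 25% at each end, 1 RD region, 3 RH18 regions and no MYF5 peak remained. Those were chr17:4793587-4794207 in RD (fold 8.70, 69 tags), and in RH18 chr17:4793249-4793511 (fold 7.55), chr17:4793648-4794399 (fold 14.8) and chr17:4812612-4813035 (fold 7.71).

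At the right end of the CHRNE window, RH18 had a region of 5539 bp (chr17:4849899-4855437) with a fold of 107.6, rank 65 of 46408, and 328 tags. Over the same span RD listed 5 regions with folds of 9.58 to 19.2, the widest of them chr17:4853427-4855532 (2106 bp, fold 10.2, 257 tags). By tags, this RD region ranked 267 of 43159 in its list, and the RH18 region 197 of 46408. The RD region of highest fold, chr17:4843365-4844695, had a fold of 31.0, rank 322, and 224 tags. The RH18 region overlapping it had a fold of 66.5, rank 1216 in its own list. The 4 MYF5 peaks had folds of 9.58, 11.5, 14.7 and 9.86 from left to right, on 28, 34, 45 and 31 tags, with summits 5.04 to 6.13 kb apart. All 4 summits lay inside RH18 regions and 3 inside RD regions. The exception, at chr17:4837508-4837835, was inside a small RH18 region (chr17:4837428-4837794, fold 11.6, 31 tags) and 4655 bp from the nearest RD region. Genes other than CHRNE follow it in this direction, and the signal could not be assigned to CHRNE.

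MUSK had the least acetylation of the 5 windows, over the longest stretch. In its 230 kb, RD listed 2 H3K27ac regions covering 786 bp, RH18 2 covering 1001 bp, and MYF5 2 peaks. As many summits were in 43.3% of bins of 230 kb for RD, 43.6% for RH18 H3K27ac and 19.0% for MYF5. No acetylated region of one line overlapped one of the other. The second MYF5 peak (chr9:113430882-113431186, fold 13.5, 43 tags) lay inside the RD region chr9:113430712-113431306, which had a fold of 14.8, rank 6001, and 123 tags. In RH18, where this MYF5 peak was mapped, the nearest H3K27ac region ended 19747 bp to the left. The first MYF5 peak (chr9:113413297-113413488, fold 13.1, 39 tags) lay outside H3K27ac in both lines, 2118 bp from the RH18 region chr9:113410501-113411278 (fold 15.4, 73 tags) and 689 bp from the RD region chr9:113412517-113412707 (fold 7.27, 40 tags). The remaining RH18 region, chr9:113506219-113506441, had a fold of 7.82 and 27 tags, with neither RD nor MYF5 near it. A missing region means only that none was listed; the RH18 H3K27ac list went down to a −log10 q-value of 5.13, and the RD list to 2.86.

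**Figure D3:**
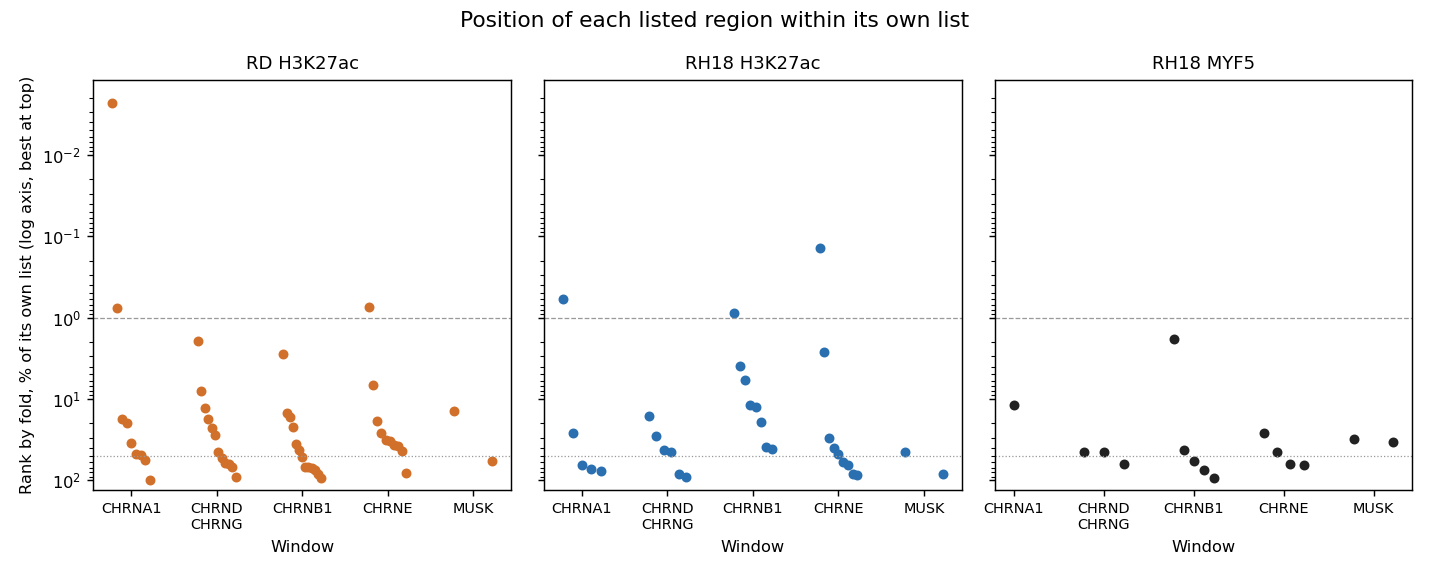
Rank by fold of every listed region of the 5 windows within its own list, as a percentage of that list on a log axis with the best rank at the top; the dashed line is at 1% and the dotted line at 50%. The CHRNA1 window holds the region of rank 1 in RD, and the MUSK regions lie below 10% in all 3 lists.

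Across the windows, 21 of the 30 RH18 H3K27ac regions (70.0%, exact Clopper-Pearson 95% interval 50.6 to 85.3%) overlapped an RD region by at least 1 bp, against 45.1% of all RH18 regions. In the other direction, 31 of 46 RD regions did (67.4%, 52.0 to 80.5%), against 60% of all. The second share is near that of the list. Without the CHRNB1 and CHRNE windows it was 10 of 23 (43.5%), below that of the list, and the RH18 share was 9 of 13 (69.2%). With an overlap of 50% of both regions asked for, the shares fell to 33.3% in RH18 (25.6% of all RH18 regions) and 21.7% in RD (27.5% of all RD regions). With both lists limited to −log10 q-values of 10 or more, 20 of 29 RH18 regions (69.0%) overlapped an RD region, against 36.9% of all, and 29 of 35 RD regions (82.9%) overlapped an RH18 region, against 65.8% of all. These intervals cover counting error only, and neighbouring regions are not independent. By window, the RH18 counts were 5 of 5 at CHRNA1, 4 of 6 at CHRND and CHRNG, 7 of 8 at CHRNB1, 5 of 9 at CHRNE and 0 of 2 at MUSK. The RD counts, in the same order, were 4 of 9, 6 of 12, 11 of 13, 10 of 10 and 0 of 2. Shared regions rested on more tags than the others, with a median of 93.0 against 36.0 in RH18 and of 178 against 68.0 in RD. They were also wider, with medians of 1024 against 367 bp in RH18 and 621 against 300 bp in RD. The same split was not made over the whole lists, so it is not known whether these differences are particular to the windows. Whether tags or width account for the sharing was not tested.

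Of the 15 MYF5 summits, 11 lay inside an RH18 H3K27ac region (73.3%, 44.9 to 92.2%), against 55.2% of all MYF5 summits. In RD regions lay 10 (66.7%, 38.4 to 88.2%), against 39.9% of all. Within 500 bp of a region lay 12 in RH18 (72.1% of all) and 12 in RD (62.9% of all). The intervals for summits inside RH18 regions and inside RD regions include the share of the whole list. They cover counting error only, neighbouring peaks are not independent, and no test was made. Both shares came mainly from CHRNB1 and CHRNE, with 9 of 9 summits in RH18 regions and 7 of 9 in RD regions. In the windows of CHRNA1, CHRND and CHRNG, and MUSK, the counts were 2 of 6 in RH18 and 3 of 6 in RD. Seen from the acetylated regions, 10 of 30 in RH18 held a MYF5 summit (33.3%, 17.3 to 52.8%; 12% of all) and 10 of 46 in RD (21.7%, 10.9 to 36.4%; 9.71% of all). Without CHRNB1 and CHRNE the RH18 share was 2 of 13 (15.4%). The acetylated regions of the windows were wider than those of their lists, with medians of 714.5 against 474 bp in RH18 and 530.5 against 358 bp in RD. The shares holding a summit were not adjusted for width, and whether width accounts for them was not tested.

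The depth behind the regions was near or above that of the lists. Members rested on a median of 110.5 tags in RD, 70.5 in RH18 H3K27ac and 41.0 in MYF5, where the lists had 85.0, 57.0 and 42.0. In RD, 12 of the 46 were within the top 5% of the list by tags and 5 by fold. In RH18 H3K27ac these counts were 6 and 5 of 30, and in MYF5 1 and 1 of 15. Tags had more than 1 solution at 10, 2 and 2 regions, in that order, and were there set to the nearest whole tag.

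**Figure D4:**
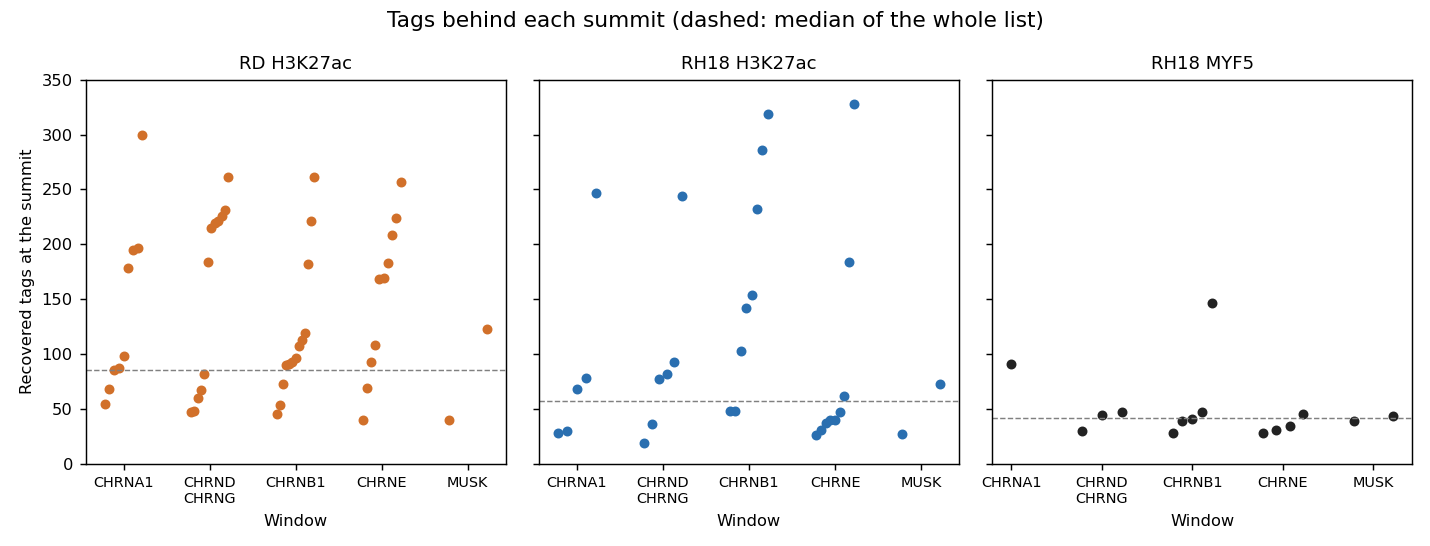
Recovered tags at the summit of every listed region, by window and list; the dashed line is the median of the whole list. The highest values are 300 tags at CHRNA1 in RD, 328 tags at CHRNE in RH18 and 146 tags for MYF5 at CHRNB1.

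Joined within 10 kb into broad acetylated domains, the regions of CHRNA1 formed a domain from 175625613 to 175636868 in RD. By summed fold times width it ranked 159 of 17620 (top 0.902%). The matching RH18 domain, from 175626110 to 175636727, ranked 3153 of 20111 (top 15.7%). At CHRND and CHRNG the domain around MYF5 peak 1 ranked 1580 in RD and 7465 in RH18. The domain around MYF5 peak 2 ranked 1521 and 2999, and the RD domain without an RH18 counterpart 750. The domain at the right end of the CHRNE window ranked 179 in RD and 74 in RH18. At CHRNB1 the middle domain ranked 896 in RD and 983 in RH18, the right one 1020 and 268, and the left one, which begins outside the window, 5251 and 1152. No MUSK domain ranked above 7103 in RD or 11953 in RH18. Ranks hold within each list, and those of different lists show no change.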

How the data were processed

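ChIP-seq peak lists of 3 libraries (RD H3K27ac, RH18 H3K27ac, RH18 MYF5) were analysed, with 1 library per group. Per the submitters' processing notes, BWA 0.7.10, MACS2 2.1.0 and hg19 were used, with no role, control or threshold named. The authors deposited for each peak a score (not used), a fold enrichment (a ratio over local background), a summit, and the −log10 of its p-value and of its q-value. Total reads are not given in the sources used here. Tags and background at a summit were recovered by solving MACS2's formulas (fold as pileup plus 1 over background plus 1, Poisson tail as p-value). In each list 100.0% of peaks gave a whole number of tags to within 0.1, with 1 tag worth 0.273, 0.832 and 0.658 pileup units in the order above. Several solutions were possible at 45.3%, 7.60% and 18.6% of peaks, and the one nearest a whole tag was taken. The unequal worth of a tag is why folds were not compared between lists. Steps were tested on simulated data. Scripts ran on Python 3.11.15 with scipy 1.17.1, numpy 2.4.6, matplotlib 3.10.9 and pandas 2.3.3.

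Overlap was at least 1 bp and MYF5 peaks were assigned by summit. Named in each window were all MYF5 peaks (at most 5), and the H3K27ac regions of highest fold and greatest width in each line, with those beside MYF5 or unique to a line added after their values were seen. The genes, windows and rules were chosen with earlier results of these data known. Other genes of the neuromuscular junction and marker genes need gene positions on hg19 and were not analysed here.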

Additional observations from a re-analysis of the deposited data

How the results depend on the processing

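Of 40 alternatives to 10 values, 31 left a count within 1.5 times or a share within its 95% interval, and 9 moved. Some of the 31 could not move. A −log10 q-value limit of 5 lies below the lowest value of the RH18 H3K27ac list (5.13) and of the MYF5 list (6.25). The intervals are also wide, so a fall from 66.7% to 50% of MYF5 summits inside RD regions counted as unmoved. The tally therefore says little about stability. Windows shortened by 25% at each end held 18 RH18 H3K27ac regions, 20 RD regions and 5 MYF5 peaks, by construction fewer. An overlap of 50% of both regions lowered the shared share to 33.3% in RH18 and 21.7% in RD, where the whole lists gave 25.6% and 27.5%. Limiting both lists to −log10 q-values from 10 upward gave an RD share of 82.9%, over 35 RD regions instead of 46, where the whole RD list gave 65.8%. Without the CHRNB1 and CHRNE windows, an alternative chosen after seeing the data, the share of RD regions overlapping RH18 was 43.5%, of MYF5 summits inside RH18 regions 33.3%, and of RH18 regions holding a summit 15.4%. The 91 regions formed 23 clusters when joined within 1000 bp and 16 within 5000 bp. No paired analysis was possible because each group held 1 library. Total reads per library are unknown, so an unlisted region shows only that none was called at that depth.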
